A study of Mus musculus with 12 samples.

Results

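The 10 genes described here, Fn1, Tnc, Thbs1, Thbs2, Sparc, Tgfbi, Has1, Has2, Vcan and Cd44, encode proteins of the provisional matrix or make, bind or sense hyaluronan. They were chosen by symbol from the 54347 genes of the deposited count table, and all 10 were among the 15319 genes kept by a filter on low counts. RNA was measured in mouse PYMT cells, a line named for the polyoma middle T mammary tumour model, with 3 libraries in each of 4 groups. The BMP4-TGFB2 cells received both ligands, the BMP4 cells and the TGFB2 cells received 1 ligand each, and the NT cells received none. Cells kept in matrigel were exposed to 5 ng/mL of each ligand during 3 days; matrigel is a basement membrane gel. Fresh medium was then given for a further 2 days before harvest, and the labels do not say if it held ligand. The study set out to compare the gene programs of the ligands in relation to tumour cell dormancy. All libraries come from a single line, and the labels call the replicates biological without saying how they were kept apart, so a p-value here speaks of the spread among these 12 libraries and no wider.

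A provisional matrix is the loose scaffold that cells lay down during wound repair and in tumour stroma, before or in place of a collagen-rich one. Fibronectin, the product of Fn1, is its fibrillar backbone and binds integrins, while matricellular proteins such as tenascin C, the thrombospondins and SPARC modulate adhesion without building fibres themselves. Hyaluronan is a long unsulphated glycosaminoglycan that synthases of the HAS family make at the plasma membrane. It is organised outside the cell by the proteoglycan versican and bound at the surface by the receptor CD44. Several of these genes are textbook targets of TGF-beta in fibroblasts and in epithelial cells that take on mesenchymal traits.

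Total counts were 28543128 to 42167771 per library. The 7 epithelial markers examined, keratins, Epcam, Cdh1 and Cldn3, summed to 4150 to 5520 TPM in every library, where TPM are transcript abundances scaled for transcript length and library total. Against NT, 2 of the 7 fell with BMP4-TGFB2 and 2 with TGFB2, where 12.9% and 11.1% of all genes fell. The other 5 were not called, and with BMP4 0 were called. Mean TPM of Cdh1 was 147 with BMP4-TGFB2, 195 with BMP4, 172 with TGFB2 and 211 in NT. That of Krt19 was 165, 335, 164 and 264 in the same order. Endothelial markers were all under 1 TPM in every library, as were 5 of 7 leukocyte markers, whose list summed to 2.55 to 13.5 TPM over all libraries. Of the basal markers Krt5, Trp63 and Oxtr were under 1 TPM, and with Krt14 and Acta2 the list summed to 425 to 990 TPM with BMP4-TGFB2, 940 to 1330 TPM with BMP4, 356 to 582 TPM with TGFB2 and 183 to 409 TPM in NT. Of 8 fibroblast markers, Lum and Fap were under 1 TPM in every library. The summed fibroblast list was 4.45 to 13.6 TPM with BMP4-TGFB2, 2.3 to 12.3 TPM with BMP4, 7.65 to 13.2 TPM with TGFB2 and 2.15 to 7.84 TPM in NT. Known SMAD2/3 response genes, a check of the ligand, rose in 6 of 6 cases with BMP4-TGFB2, 5 of 6 with BMP4 (6 with the replicate number as a block) and 6 of 6 with TGFB2. By these calls the SMAD2/3 list did not separate the ligands. Known BMP response genes rose in 3 of 6 cases with BMP4-TGFB2, 5 of 6 with BMP4 (6 with the block) and 1 of 6 with TGFB2, where 2 fell. Over all genes 13.3% rose with BMP4-TGFB2, 3.21% with BMP4 (8.6% with the block) and 11.3% with TGFB2.

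Group means of the 10 genes spanned 0.128 to 777 TPM. With TGFB2 the order of mean TPM was Fn1 (777), Thbs1 (390), Cd44 (216), Has2 (97.6), Tnc (48.9), Vcan (27.0), Sparc (9.86), Thbs2 (0.461), Tgfbi (0.239) and Has1 (0.160). In NT it was Thbs1 (314), Cd44 (163), Fn1 (71.1), Vcan (20.5), Sparc (3.24), Has2 (1.83), Tnc (0.763), Tgfbi (0.284), Thbs2 (0.135) and Has1 (0.128). Libraries of neighbouring genes overlapped with TGFB2 between Fn1 and Thbs1, between Has2 and Tnc, between Tnc and Vcan, and among the last 3 genes. In NT they overlapped from Sparc down to Has1 and nowhere above. By mean TPM, Fn1 ranked 240th of all genes with BMP4-TGFB2, 496th with BMP4, 206th with TGFB2 and 2355th in NT. Has2 ranked 1765th with BMP4-TGFB2, 7521st with BMP4, 1659th with TGFB2 and 11418th in NT. Thbs1 stayed within the 527 most abundant genes of every group and Cd44 within the 995 most abundant.

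**Figure D1:**
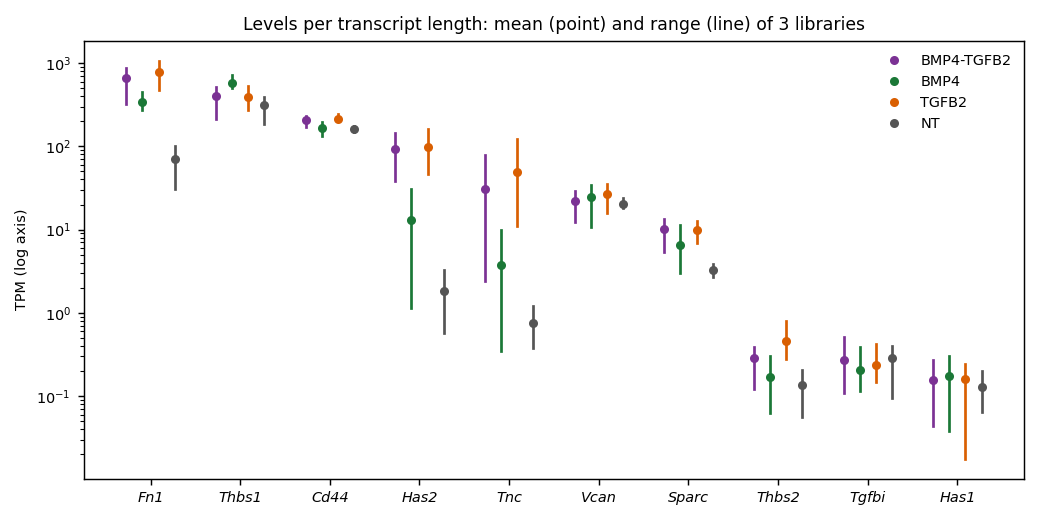
Mean (point) and range (line) of 3 libraries for each gene in TPM, on a log axis, with BMP4-TGFB2, BMP4, TGFB2 and NT from left to right within a gene. Fn1, Has2 and Tnc moved most between groups, with Has2 at a mean of 97.6 TPM with TGFB2 and 1.83 TPM in NT, while Thbs2, Tgfbi and Has1 lay under 1 TPM in every library.

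Promoters were looked up in RefSeq's table for GRCm38.p6, which gives 250 bases before and 50 after a listed start of a gene. Of the 10 genes 7 matched, with 8 windows. Windows are shown for Tnc and Sparc, which rose with TGFB2 and with BMP4-TGFB2, and for Vcan, which passed in none of the comparisons. All 3 lie on the minus strand and are written 5′ to 3′ along the gene. Tnc is at chr4:64046966-64047265, Sparc at chr11:55420031-55420330 and Vcan at chr13:89742463-89742762. The Sparc window lies inside the span annotated for the gene, 55394500 to 55423183, and not at its upstream end. Capitals mark CAGAC or its reverse complement GTCTG, the short DNA motif that SMAD3 and SMAD4 bind.
Tnc: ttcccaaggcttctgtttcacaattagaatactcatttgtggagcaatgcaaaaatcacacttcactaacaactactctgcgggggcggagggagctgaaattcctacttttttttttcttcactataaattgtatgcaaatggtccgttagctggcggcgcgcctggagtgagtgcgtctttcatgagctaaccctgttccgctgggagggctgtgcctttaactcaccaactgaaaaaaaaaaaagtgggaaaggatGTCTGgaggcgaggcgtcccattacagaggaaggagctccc
Sparc: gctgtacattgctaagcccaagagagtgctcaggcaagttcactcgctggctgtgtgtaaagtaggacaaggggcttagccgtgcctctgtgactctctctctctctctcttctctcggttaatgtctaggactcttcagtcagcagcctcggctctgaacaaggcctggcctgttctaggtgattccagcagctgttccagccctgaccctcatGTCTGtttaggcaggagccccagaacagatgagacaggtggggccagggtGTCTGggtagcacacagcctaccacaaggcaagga
Vcan: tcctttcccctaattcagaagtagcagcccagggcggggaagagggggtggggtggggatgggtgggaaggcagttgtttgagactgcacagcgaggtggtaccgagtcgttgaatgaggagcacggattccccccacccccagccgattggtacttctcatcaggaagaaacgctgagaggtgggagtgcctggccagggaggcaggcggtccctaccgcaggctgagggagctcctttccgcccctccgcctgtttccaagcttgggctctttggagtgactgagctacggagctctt

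The motif was found in both Tnc windows, which overlap each other, and in those of Thbs2, Sparc, Tgfbi and Has1, but not in those of Vcan and Cd44. Of 32851 promoters in the table, 49.6% hold it on either strand, so a match is common. Tgfbi and Has1 held it without passing any test. Another 6 motifs were sought on both strands: the AP-1 motif TGANTCA (in 7.81% of all promoters), the SMAD palindrome GTCTAGAC (0.213%), the SMAD element GGCGCC (11.9%), the TATA box TATAAA (13.6%), the GC box GGGCGG (35.7%) and the cyclic AMP element TGACGTCA (1.79%). A TATA box was in the windows of Tnc and Thbs2, a GC box in those of Tnc, Tgfbi, Vcan and Cd44, GGCGCC in that of Tgfbi and TGACGTCA in that of Has1. No window held TGANTCA or GTCTAGAC, and no match within a window overlapped another. These matches describe letters in the windows and were not tested against expression.

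Fibronectin RNA was the most abundant of the changed members and, in the model by group, the single one to pass with each ligand alone and with both. Fn1 (ENSMUSG00000026193.15, GRCm38 chromosome 1, 71585520 to 71653200, minus strand) had 1677, 3427 and 4441 CPM in the BMP4-TGFB2 libraries of replicates 1, 2 and 3, where CPM are counts scaled to library size after TMM normalisation. It had 1171, 1430 and 2329 CPM with BMP4, 2340, 3602 and 4848 CPM with TGFB2, and 440.4, 165.7 and 416.8 CPM in NT. The lowest treated library, at 1171 CPM, was above the highest NT library, so each treated group was separated from NT, and the BMP4 libraries were all below the TGFB2 libraries. By edgeR's quasi-likelihood test the log2 fold change against NT was 3.22 ± 0.48 with BMP4-TGFB2 (SE; 9.33-fold; adjusted p = 0.000569), 2.27 ± 0.46 with BMP4 (4.82-fold; adjusted p = 0.0161) and 3.40 ± 0.48 with TGFB2 (10.5-fold; adjusted p = 0.000555). These comparisons share the NT libraries, in which replicate 2 was well below the other 2. The call with BMP4 was lost without NT replicate 2 (adjusted p = 0.0627), without BMP4 replicate 3 (0.0569) and without all replicate 3 libraries (0.106), whereas both other calls held in every alternative tried.

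Has2, the synthase that makes most hyaluronan in many mesenchymal cells, rose with TGFB2, alone or with BMP4. Has2 (ENSMUSG00000022367.7, GRCm38 chromosome 15, 56665627 to 56694539, minus strand) had 110.8, 244.3 and 412.7 CPM with BMP4-TGFB2 in replicates 1, 2 and 3. It had 3.292, 19.1 and 87.37 CPM with BMP4, 131.1, 227.3 and 430.5 CPM with TGFB2, and 1.515, 4.702 and 8.817 CPM in NT. In each of the 4 groups replicate 1 was lowest and replicate 3 highest. Both groups with TGFB2 lay above every BMP4 and NT library, while BMP4 replicate 1 lay among the NT libraries. Against NT its log2 fold change was 5.68 ± 1.14 with BMP4-TGFB2 (51.2-fold; adjusted p = 0.00374), 2.87 ± 1.01 with BMP4 (adjusted p = 0.139) and 5.72 ± 1.14 with TGFB2 (52.7-fold; adjusted p = 0.0044). Calls in both groups with TGFB2 held in every alternative tried. Same-numbered BMP4 and NT libraries deviated together. With the replicate number as a block over all 12 libraries, Has2 passed with BMP4 at 2.42 (adjusted p = 0.00893).

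Has1, a less abundant synthase gene (ENSMUSG00000003665.7, GRCm38 chromosome 17, 17843323 to 17855205, minus strand), had 1 to 14 counts in any library. Its CPM were 0.08275, 0.3515 and 0.1962 with BMP4-TGFB2, 0.05143, 0.411 and 0.2508 with BMP4, 0.02364, 0.4487 and 0.277 with TGFB2, and 0.07834, 0.2833 and 0.1499 in NT. The groups overlapped, replicate 2 was highest in all 4, and no difference was detectable at this depth (log2 fold change with TGFB2 of 0.52 ± 0.997). Of the summed TPM of Has1, Has2 and Has3, Has2 held 99.3% to 99.8% with BMP4-TGFB2, 94.3% to 98.9% with BMP4, 99.6% to 99.8% with TGFB2 and 77% to 93.8% in NT. The summed level of the 3 synthases was 38.9 to 146 TPM with BMP4-TGFB2, 1.21 to 30.8 TPM with BMP4, 46.1 to 163 TPM with TGFB2 and 0.754 to 3.45 TPM in NT.

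Tenascin C, a hexameric glycoprotein of wounds and tumour stroma, had a fitted fold change near that of Has2 in both groups with TGFB2, and spread widely between libraries. Tnc (ENSMUSG00000028364.15, GRCm38 chromosome 4, 63959785 to 64047015, minus strand) had 11.72, 55.5 and 375.8 CPM with BMP4-TGFB2 in replicates 1, 2 and 3. It had 1.697, 4.616 and 48.65 CPM with BMP4, 53.39, 52.01 and 554.1 CPM with TGFB2, and 1.645, 3.456 and 5.578 CPM in NT. Replicate 3 was highest in each group, by 10.7 times over the lowest library with TGFB2 and 32.1 times with BMP4-TGFB2. All libraries of both groups with TGFB2 were above all NT libraries. Relative to NT, the fitted log2 fold change was 5.38 ± 1.64 with BMP4-TGFB2 (adjusted p = 0.0318), 2.37 ± 1.47 with BMP4 (adjusted p = 0.436) and 5.95 ± 1.68 with TGFB2 (adjusted p = 0.0263). Without TGFB2 replicate 3 the value with TGFB2 was 3.89 (adjusted p = 0.09), and without BMP4-TGFB2 replicate 3 that with both ligands was 3.23 (adjusted p = 0.126). Both calls were also lost in limma voom (adjusted p = 0.163 with BMP4-TGFB2 and 0.1 with TGFB2), that with BMP4-TGFB2 in limma on log2(TPM + 0.1) (4.09; adjusted p = 0.054), and both without any single NT library (0.0695 to 0.106). With all replicate 3 libraries left out both passed, at 3.70 (adjusted p = 0.0216) with BMP4-TGFB2 and 4.36 (adjusted p = 0.0153) with TGFB2.

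Sparc encodes a collagen-binding matricellular protein, also called osteonectin. Sparc (ENSMUSG00000018593.13, GRCm38 chromosome 11, 55394500 to 55423183, minus strand) had 6.151, 13.43 and 14.94 CPM with BMP4-TGFB2, 4.346, 7.018 and 16.02 CPM with BMP4, 8.772, 12.27 and 16.79 CPM with TGFB2, and 3.395, 3.711 and 5.218 CPM in NT. Both groups with TGFB2 lay above NT, while BMP4 replicate 1 fell within the NT range. The log2 fold change against NT was 1.49 ± 0.48 with BMP4-TGFB2 (2.80-fold; adjusted p = 0.0386), 1.15 ± 0.47 with BMP4 (adjusted p = 0.209) and 1.62 ± 0.48 with TGFB2 (3.07-fold; adjusted p = 0.0311). Both calls with TGFB2 lay near the threshold: each was lost without any single NT library, without replicate 2 or without replicate 3 of its treated group, and without all replicate 3 libraries (adjusted p 0.0527 to 0.12). The call with BMP4-TGFB2 was also lost in limma voom (adjusted p = 0.0783). With the replicate block Sparc passed with BMP4 at 0.99 (adjusted p = 0.0246). Sparc is also expressed by fibroblasts, whose markers Col1a1, Col3a1 and Pdgfra rose with BMP4-TGFB2 and, with Pdgfrb, with TGFB2. Of the 8 listed fibroblast markers 7 were tested, and Col1a2, Dcn and Lum were called in neither of these groups. Over all genes 13.3% rose with BMP4-TGFB2 and 11.3% with TGFB2. Dcn averaged 2.85 TPM with BMP4-TGFB2, 4.23 TPM with BMP4, 2.77 TPM with TGFB2 and 2.75 TPM in NT. Under the block Col1a1 also rose with BMP4 (0.94; adjusted p = 0.0129). Col1a1 was at 1.58 ± 0.80 TPM with BMP4-TGFB2, 0.779 ± 0.186 TPM with BMP4, 1.85 ± 0.35 TPM with TGFB2 and 0.420 ± 0.107 TPM in NT (SD, n = 3 each). In these bulk samples a different number of cells of a type and a different amount of RNA per cell cannot be told apart, and the part of fibroblast-marker transcripts in the members' changes was not tested.

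**Figure D2:**
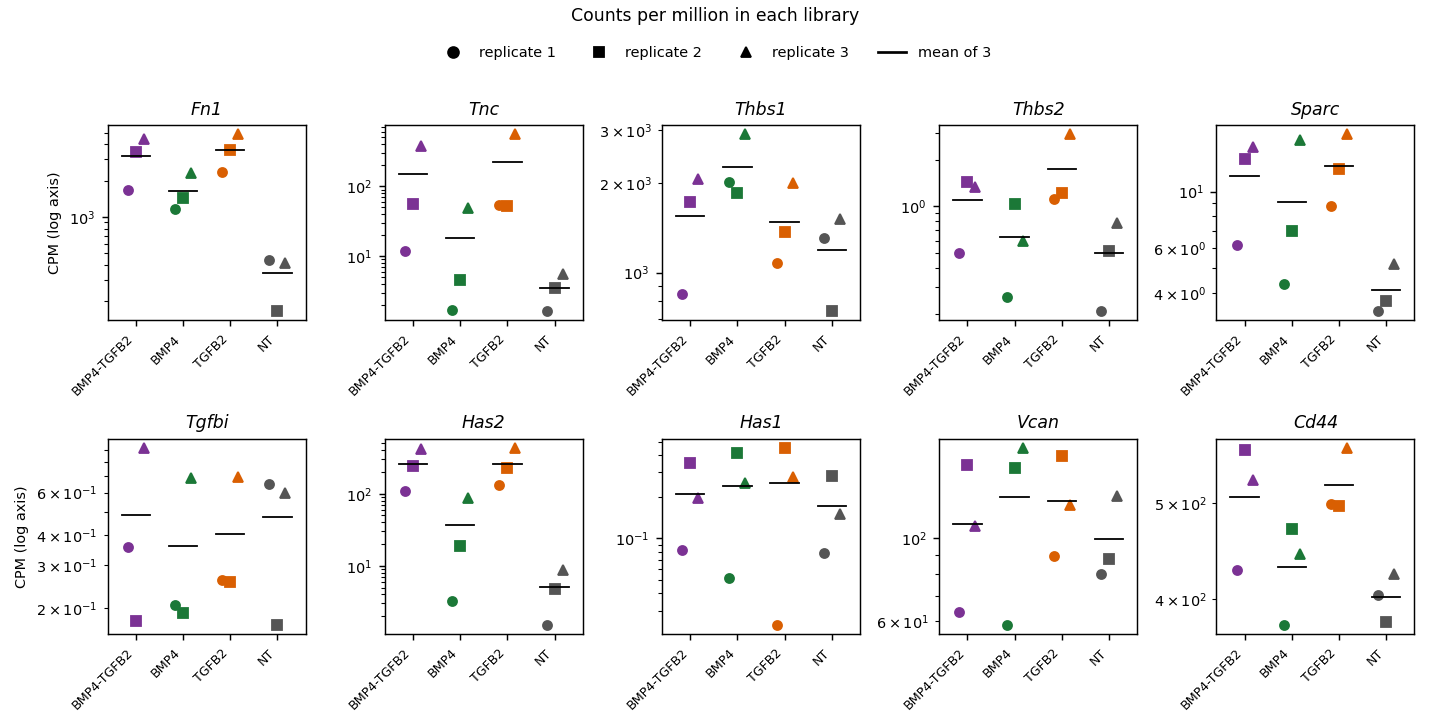
CPM of each gene in every library on log axes, with BMP4-TGFB2, BMP4, TGFB2 and NT from left to right, marker shapes for replicates 1, 2 and 3, and a line at the mean of 3. Fn1 in treated groups, and Tnc, Sparc and Has2 in both groups with TGFB2, lie above all NT libraries, and Has2 in BMP4 spreads over 3.292 to 87.37 CPM.

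The thrombospondins differed in level and in pattern. Thbs1 (ENSMUSG00000040152.8, GRCm38 chromosome 2, 118111876 to 118127133, plus strand), an activator of latent TGF-beta and an inhibitor of angiogenesis, had 849.8, 1729 and 2062 CPM with BMP4-TGFB2. It had 2013, 1848 and 2907 CPM with BMP4, 1079, 1371 and 1989 CPM with TGFB2, and 1309, 742.7 and 1507 CPM in NT. The BMP4 libraries were all above the NT libraries, and those of the other treated groups overlapped NT. The log2 fold change against NT was 0.38 ± 0.36 with BMP4-TGFB2, 0.93 ± 0.36 with BMP4 (adjusted p = 0.179) and 0.32 ± 0.36 with TGFB2. With the replicate block the value with BMP4 was 0.92 (adjusted p = 0.0386).

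Thbs2 (ENSMUSG00000023885.9, GRCm38 chromosome 17, 14665500 to 14694235, minus strand), a related inhibitor of angiogenesis, had 8 to 106 counts per library. Its CPM were 0.4965, 1.441 and 1.341 with BMP4-TGFB2, 0.2572, 1.043 and 0.5956 with BMP4, 1.111, 1.218 and 2.937 with TGFB2, and 0.2089, 0.5099 and 0.7797 in NT. All TGFB2 libraries were above all NT and BMP4 libraries, and the BMP4-TGFB2 group overlapped NT. Its log2 fold change of 1.81 ± 0.68 with TGFB2 against NT missed the threshold (adjusted p = 0.0782; 0.0328 in DESeq2), as did 1.13 ± 0.68 with BMP4-TGFB2 (adjusted p = 0.25).

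Tgfbi, named as a TGF-beta-induced gene, was close to the limit of detection. Tgfbi (ENSMUSG00000035493.10, GRCm38 chromosome 13, 56609523 to 56639562, plus strand) had 5 to 28 counts per library, at 0.3586, 0.1757 and 0.9156 CPM with BMP4-TGFB2, 0.2057, 0.1897 and 0.6897 CPM with BMP4, 0.2601, 0.2564 and 0.6926 CPM with TGFB2, and 0.6528, 0.17 and 0.5998 CPM in NT. The groups overlapped throughout, and the fitted value with TGFB2 was -0.23 ± 0.80 (adjusted p = 0.862). No difference was detectable at this depth.

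Versican and CD44, which bind hyaluronan in the matrix and at the cell surface, were expressed in all groups and passed in none of the comparisons. Vcan (ENSMUSG00000021614.16, GRCm38 chromosome 13, 89655312 to 89742509, minus strand) had 63.41, 156.3 and 107.8 CPM with BMP4-TGFB2, 58.63, 153.3 and 173.7 CPM with BMP4, 89.33, 165.4 and 122.5 CPM with TGFB2, and 80.11, 88.12 and 129.3 CPM in NT. Replicate 1 was lowest in every group and the groups overlapped. Its log2 fold changes against NT were 0.14 ± 0.41 with BMP4-TGFB2, 0.37 ± 0.41 with BMP4 and 0.34 ± 0.41 with TGFB2, none past the threshold. Cd44 (ENSMUSG00000005087.17, GRCm38 chromosome 2, 102811141 to 102901665, minus strand) had 427.5, 564.9 and 527 CPM with BMP4-TGFB2, 376.5, 470.8 and 443.9 CPM with BMP4, 498.4, 496.5 and 567.6 CPM with TGFB2, and 403.2, 378.6 and 423.8 CPM in NT. Both groups with TGFB2 were above every NT library by a small margin, and BMP4 overlapped NT. The log2 fold change was 0.33 ± 0.13 with BMP4-TGFB2 (adjusted p = 0.0856), 0.10 ± 0.13 with BMP4 and 0.37 ± 0.13 with TGFB2 (adjusted p = 0.0638; 0.0394 in DESeq2). With all replicate 1 libraries left out both differences of Cd44 passed, at 0.44 with BMP4-TGFB2 (adjusted p = 0.029) and 0.41 with TGFB2 (adjusted p = 0.0413).

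Counted together, 4 of the 10 genes rose with TGFB2 and 0 fell, where 11.3% of all tested genes rose and 11.1% fell. The libraries of 6 were all higher than NT, against 19.4% of all genes, and the median log2 fold change of the 10 was 1.07 beside 0.011 over all genes. With BMP4-TGFB2 4 rose and 0 fell, where 13.3% of all genes rose and 12.9% fell, the libraries of 5 were all higher (20.8% of all genes), and the median was 0.75 beside 0.0055. With BMP4 1 rose and 0 fell, where 3.21% of all genes rose and 2.25% fell, the libraries of 2 were all higher (11.7% of all genes), and the median was 0.69 beside 0.00046. With the replicate block 4 rose with BMP4, where 8.6% of all genes did. All 3 comparisons share the NT libraries.

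**Figure D3:**
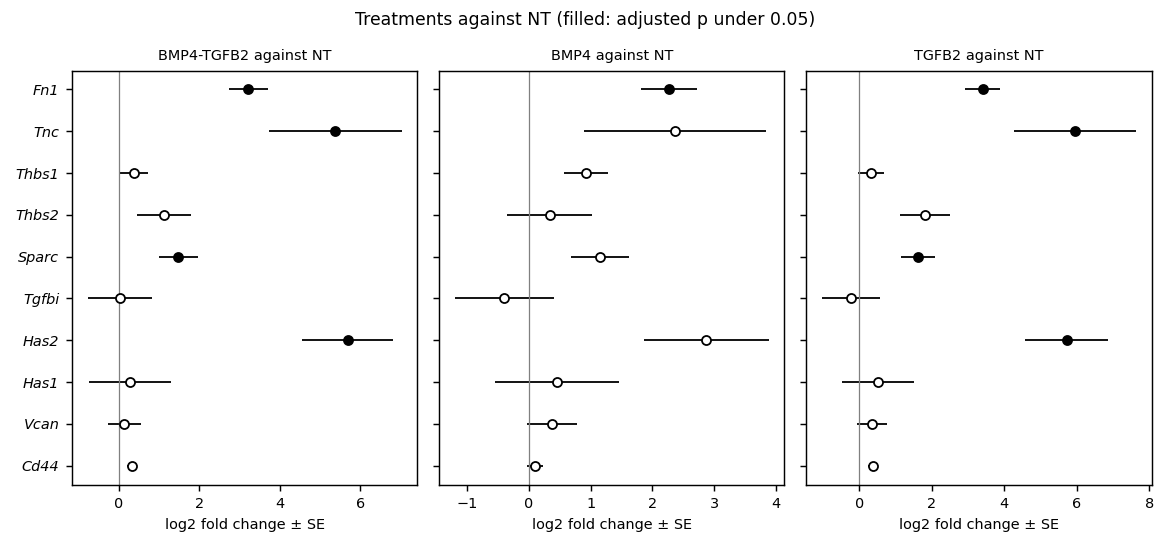
Log2 fold change against NT with SE for each gene with BMP4-TGFB2, BMP4 and TGFB2, filled where the adjusted p was under 0.05. Fn1 is filled in all 3 panels, and Tnc, Sparc and Has2 with BMP4-TGFB2 and with TGFB2.

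With BMP4 added to TGFB2, none of the 10 genes differed past the threshold from TGFB2 alone. In this comparison, BMP4-TGFB2 against TGFB2, 0% of all genes were called by edgeR, and DESeq2 called 51 genes. By edgeR 516 of the 15319 tested genes had an unadjusted p under 0.05, which is less than a 0.05 share of them. No member's libraries were separated between these groups, as 3.24% of all genes were with BMP4-TGFB2 higher and 3.53% with it lower. The values were -0.18 ± 0.44 for Fn1, -0.04 ± 0.92 for Has2, -0.13 ± 0.46 for Sparc and -0.04 ± 0.13 for Cd44, with a median over the 10 of -0.16. The SE was small for Cd44 and large for Has2 and for Tnc (-0.57 ± 1.34), so larger differences of these last genes would not have been called. Between same-numbered libraries Has2 differed by -0.24, 0.10 and -0.06 log2 units in replicates 1, 2 and 3, and Fn1 by -0.48, -0.07 and -0.13.

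Adding TGFB2 to BMP4 gave higher mean levels of Has2 and Tnc, without a call in the model by group. In BMP4-TGFB2 against BMP4 none of the 10 passed, where 9.22% of all genes were called, and the libraries of Has2 alone were all higher (13.9% of all genes). The log2 fold change was 2.81 ± 0.99 for Has2 (adjusted p = 0.106), 3.01 ± 1.45 for Tnc (adjusted p = 0.241) and 0.95 ± 0.44 for Fn1 (adjusted p = 0.222). Replicate numbers were taken to pair these libraries, which the labels do not state. With the block Has2 (3.41, adjusted p = 0.000752) and Tnc (3.07, adjusted p = 0.00323) passed, where 10.7% of all genes rose. Within same-numbered libraries Has2 was higher by 5.05, 3.67 and 2.24 log2 units and Tnc by 2.75, 3.57 and 2.95. Thbs1 went the other way, at -0.54 ± 0.36 (adjusted p = 0.397).

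BMP4 against TGFB2 compares the ligands directly. None of the 10 passed, where 7.83% of all genes were called, yet Fn1, Tnc, Thbs2, Has2 and Cd44 were lower in every BMP4 library than in every TGFB2 library, a pattern of 13.2% of all genes. The log2 fold change was -1.13 ± 0.44 for Fn1 (adjusted p = 0.158), -3.59 ± 1.49 for Tnc (0.184), -1.48 ± 0.67 for Thbs2 (0.229), -2.85 ± 0.99 for Has2 (0.111) and -0.28 ± 0.13 for Cd44 (0.26). With the replicate block 4 fell, Fn1 (-1.14; adjusted p = 0.0456), Tnc (-3.93; 0.00124), Thbs2 (-1.54; 0.0402) and Has2 (-3.50; 0.000788), where 9.54% of all genes fell. Thbs1 had a positive value, 0.61 ± 0.36 (adjusted p = 0.372), and its same-numbered libraries differed by 0.90, 0.43 and 0.55 log2 units.

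**Figure D4:**
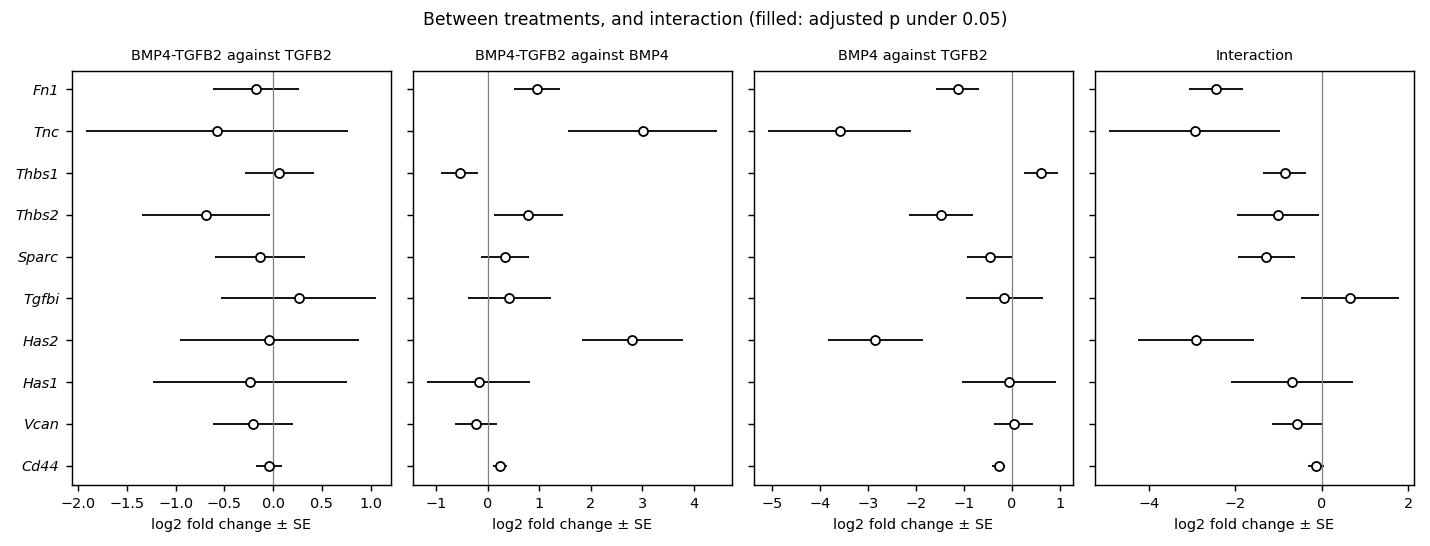
Log2 fold change with SE for each gene between treated groups, and the interaction, filled where the adjusted p was under 0.05. No point is filled; Has2 and Tnc lie to the right for BMP4-TGFB2 against BMP4 (2.81 and 3.01) and to the left for BMP4 against TGFB2 (-2.85 and -3.59).

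The interaction asks whether the log2 effect of TGFB2 in BMP4-treated cells differs from its effect in cells without BMP4. None of the 10 passed, where 0.157% of all genes were called. Of the 10 estimates 9 were below 0, and the median of the 10 was -0.94 beside -0.017 over all genes. The share of all genes below 0 was not counted. These 10 estimates rest on the same 12 libraries and were not tested as a set. Fn1 had the smallest p, with an interaction of -2.45 ± 0.63 (unadjusted p = 0.00233; adjusted p = 0.191). TGFB2 came with 0.95 log2 units of Fn1 on top of BMP4 and 3.40 without it, a difference that passed in DESeq2 (adjusted p = 0.00746) and with no filter on low counts (0.00181), and with the replicate block (-2.39; 0.045), whose numbers are not taken as pairs here, but not in edgeR by group. Has2 stood at -2.91 ± 1.35 (adjusted p = 0.601), Tnc at -2.94 ± 1.98 (0.782) and Sparc at -1.28 ± 0.66 (0.659).

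Among the 10 genes, libraries with the same replicate number often held the same rank across groups. Over the 10 genes and 4 groups, replicate 3 held the highest CPM in 28 of 40 cases and the lowest in 0, and replicate 1 the lowest in 30 and the highest in 2. The matching share over all tested genes was not counted. Over all tested genes, deviations of same-numbered libraries correlated at 0.026 (replicate 2, BMP4-TGFB2 and NT) to 0.5 (replicate 1, BMP4-TGFB2 and TGFB2). The coefficient of variation over 3 libraries was 132% to 144% for Tnc in the treated groups and 122% for Has2 with BMP4, against 5.64% to 14% for Cd44 in the 4 groups. Relative to the same-numbered NT libraries, Has2 stood 1.09, 2.01 and 3.30 log2 units higher with BMP4 in replicates 1, 2 and 3, and 6.39, 5.58 and 5.6 higher with TGFB2. Without all replicate 1 libraries Fn1, Tnc, Sparc and Has2 passed again with BMP4-TGFB2 and with TGFB2, and Fn1 passed with BMP4.

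Across the 12 libraries log2 CPM of Tnc and Has2 correlated at a Pearson r of 0.929, Tnc and Sparc at 0.92, Sparc and Has2 at 0.914 and Thbs2 and Cd44 at 0.904. Fn1 was closest to Sparc among the members (0.883), Has1 and Vcan were closest to each other (0.788), and Tgfbi had no r above 0.416 with any other member. These points share groups and replicate numbers, so the values are descriptions. Among all tested genes those most like Fn1 were Angptl4 (0.99), Tnnt2 (0.976) and Kank3 (0.975), those most like Tnc were Rrad (0.989), Dpy19l1 (0.987) and Serpinh1 (0.975), and those most like Has2 were Chsy1 (0.991), Epb41l2 (0.982) and Nectin3 (0.982). Sparc was most like Fkbp9 (0.97), Map3k20 (0.964) and Tuba1a (0.958), Thbs1 most like Kalrn (0.898), Pde4a (0.897) and Axl (0.875), and Thbs2 most like Pcyt1b (0.933), Acta2 (0.93) and Lin28b (0.929). Cd44 was closest to Rasa1 (0.949), Nckap5l (0.944) and Asap2 (0.94), Vcan to Fgd5 (0.917), Tmed8 (0.907) and Akap11 (0.894), Tgfbi to Tnni3 (0.879), Chuk (0.874) and Ablim1 (0.868), and Has1 to H19 (0.954), Hapln1 (0.954) and Asb5 (0.927).

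Beyond Has1, Has2 and Cd44, the share of hyaluronan pathway genes called was near that of all genes. Of 24 listed genes of hyaluronan synthesis, turnover and reception, 18 were tested, of which 4 rose and 2 fell with BMP4-TGFB2, 0 passed with BMP4, and 3 rose and 2 fell with TGFB2. Over all genes 13.3% rose and 12.9% fell with BMP4-TGFB2, 3.21% and 2.25% with BMP4, and 11.3% and 11.1% with TGFB2. Under the replicate block 1 of the 18, Stab1, rose with BMP4 (1.61; adjusted p = 0.0226), where 8.6% of all genes rose and 6.78% fell. The median with TGFB2 was 0.50 beside 0.011 over all genes. Stab1, which encodes a scavenger receptor, was at 13.7 ± 2.25 TPM with BMP4-TGFB2, 1.40 ± 0.69 with BMP4, 8.38 ± 2.85 with TGFB2 and 0.616 ± 0.432 in NT. It rose by 5.29 ± 0.57 log2 units with BMP4-TGFB2 and 4.65 ± 0.55 with TGFB2. Cemip, which starts hyaluronan breakdown, rose with BMP4-TGFB2 (3.28 ± 0.62; adjusted p = 0.00263) and TGFB2 (3.49 ± 0.63; adjusted p = 0.0022) but averaged only 0.384 and 0.486 TPM there and 0.0495 TPM in NT. Ugp2, which makes the UDP-glucose used for the hyaluronan precursor UDP-glucuronate, fell by 0.99 ± 0.16 with BMP4-TGFB2 and by 0.93 ± 0.16 with TGFB2. Itih2, whose heavy chain can be attached to hyaluronan, fell with BMP4-TGFB2 (-2.59 ± 0.64) and TGFB2 (-5.50 ± 0.81), all at means under 1 TPM.

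Among 14 genes of the other hyaluronan-binding proteoglycans, link proteins and the proteases that cut them, 9 were tested, of which 1 rose and 2 fell with BMP4-TGFB2, 0 passed with BMP4, and 1 rose and 2 fell with TGFB2, to be read beside the same shares of all genes. Under the block 2, Acan (adjusted p = 0.00237) and Adamts15 (1.28, adjusted p = 0.0218), rose with BMP4, where 8.6% of all genes rose. Of the tested proteases Adamts9 and Adamts4 were called with TGFB2, in opposite directions, while Adamts1, Adamts5, Adamts8 and Adamts15 were not called with it. Adamts9 fell by 2.97 ± 0.42 log2 units with BMP4-TGFB2 and by 2.44 ± 0.41 with TGFB2. Adamts4 rose with TGFB2 (1.03 ± 0.23, adjusted p = 0.00889). Its level was 23.3 ± 5.9 TPM with BMP4-TGFB2, 21.7 ± 2.34 TPM with BMP4, 31.5 ± 5.28 TPM with TGFB2 and 15.6 ± 5.88 TPM in NT. The link protein gene Hapln4 fell in both groups with TGFB2 at means under 1 TPM, and Acan, aggrecan, averaged under 1 TPM in all groups and passed in none of these without the block.

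Of 24 other matricellular and provisional matrix genes, 18 were tested, of which 6 rose and 1 fell with BMP4-TGFB2, 3 rose with BMP4 and 5 rose with TGFB2, beside 13.3%, 3.21% and 11.3% of all genes that rose. Blocked by replicate number, 4 rose with BMP4, among them Efemp2 (0.84, adjusted p = 0.00646), and 1, Ltbp1 (-1.19, adjusted p = 0.012), fell. In that blocked comparison 8.6% of all genes rose and 6.78% fell. The medians were 0.76, 0.60 and 0.93 in the same order of groups, beside 0.0055, 0.00046 and 0.011 over all genes. Fbln2, fibulin 2, which binds fibronectin and versican, was at 387 ± 175 TPM with BMP4-TGFB2, 141 ± 112 with BMP4, 241 ± 146 with TGFB2 and 14.1 ± 9.25 in NT, and rose with each (4.72 ± 0.78, 3.27 ± 0.73 and 4.0 ± 0.75 log2 units). Smoc1, a relative of Sparc, rose with BMP4-TGFB2 (1.49 ± 0.31), BMP4 (1.58 ± 0.31) and TGFB2 (1.07 ± 0.30). Spp1, osteopontin, fell by 1.72 ± 0.25 with BMP4-TGFB2, where it averaged 540 ± 190 TPM against 1780 ± 165 TPM in NT. It was at 1300 ± 262 TPM with BMP4 and 1380 ± 409 TPM with TGFB2, and was called with neither ligand alone. Postn, periostin, rose with TGFB2 (2.64 ± 0.48, adjusted p = 0.0024), at 1.91 ± 0.21 TPM and 0.339 ± 0.292 TPM in NT. It was at 0.751 ± 0.0625 TPM with BMP4-TGFB2 and 0.601 ± 0.0728 TPM with BMP4. In the model by group neither gene was called between BMP4-TGFB2 and TGFB2.

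All 21 listed surface receptors of these proteins were tested, of which 13 rose and 4 fell with BMP4-TGFB2, 9 rose and 2 fell with BMP4, and 10 rose and 3 fell with TGFB2. Among all genes 13.3% rose and 12.9% fell with BMP4-TGFB2, 3.21% and 2.25% with BMP4, and 11.3% and 11.1% with TGFB2. In the blocked model 11 rose and 2 fell with BMP4, where 8.6% of all genes rose and 6.78% fell. The added ones were Anxa2 (0.42, adjusted p = 0.0418) and Stab1, which also stands in the hyaluronan list. Sdc3, a heparan sulphate proteoglycan, was at 164 ± 59.5 TPM with BMP4-TGFB2, 44.9 ± 10.7 with BMP4, 87.8 ± 31.5 with TGFB2 and 2.79 ± 0.96 in NT, and rose by 5.64 ± 0.38, 3.95 ± 0.35 and 4.73 ± 0.37 log2 units. Itgb3, the beta subunit of a receptor for fibronectin and the thrombospondins, rose with BMP4-TGFB2 (6.16 ± 0.62), BMP4 (2.69 ± 0.58) and TGFB2 (6.07 ± 0.62). Itga8, the alpha subunit of an integrin that binds fibronectin and tenascin C, fell by 2.92 ± 0.29 with BMP4-TGFB2, by 1.08 ± 0.27 with BMP4 and by 2.72 ± 0.29 with TGFB2. Lrp1, an endocytic receptor that clears thrombospondin 1, rose with BMP4-TGFB2 (2.25 ± 0.25), BMP4 (1.10 ± 0.24) and TGFB2 (2.34 ± 0.25). The medians over the 21 receptors were 0.99, 0.42 and 0.73 in the same order of groups, beside 0.0055, 0.00046 and 0.011 over all genes.

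**Figure D5:**
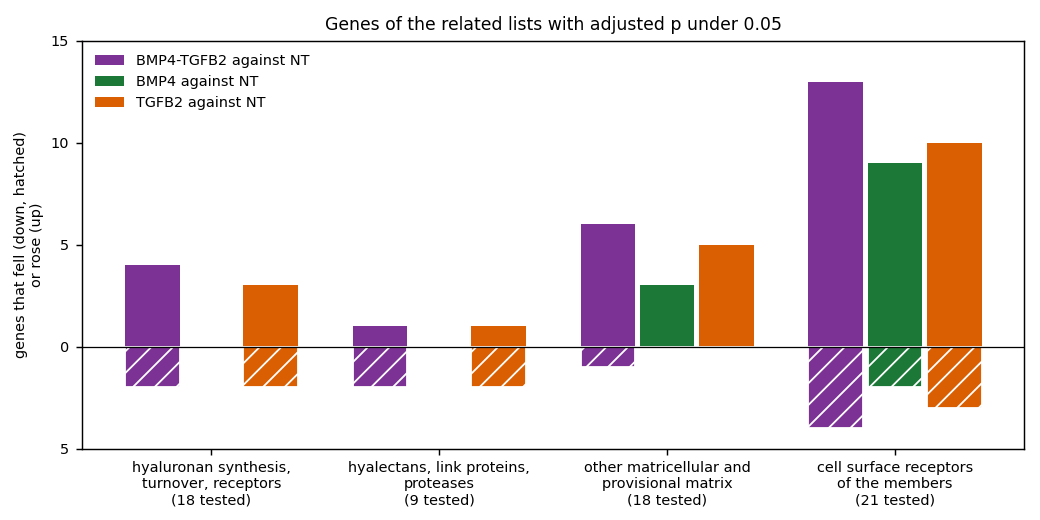
Number of genes that rose (up) or fell (down, hatched) at an adjusted p under 0.05 in each list of related genes, for BMP4-TGFB2, BMP4 and TGFB2 against NT. The receptors hold the most calls, 13 up and 4 down with BMP4-TGFB2, and neither hyaluronan list holds a call with BMP4 in this model without a replicate block.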

How the data were processed

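Poly(A) RNA from 12 libraries was sequenced as read pairs with a NEBNext Ultra II kit, per the labels' protocols. The submitters' processing notes name GRCm38.p6, Salmon 1.2.1, STAR 2.7.5b and bcl2fastq 2.17, without settings. Deposited by the authors were estimated counts per gene, which were rounded here (82.9% were already whole), and TPM, in which the authors divided by transcript length and library total. A deposited table of size-factor-scaled signal, and the deposited labels of batch, strand and quality (the same for all libraries), were not tested. Reads were unstranded, per the file headers, and antisense partners of Fn1, Tnc, Thbs1 and Has2 had at most 0.335% of the gene's CPM.

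Total counts were 28543128 to 42167771. The edgeR 4.0.16 quasi-likelihood test (R 4.3.3) used all 12 libraries in 1 model by group, TMM factors (0.971 to 1.03), filterByExpr with a minimum count of 10 (15319 genes, 99.9% of counts) and Benjamini-Hochberg adjustment over all genes tested in each of 7 comparisons, passing under 0.05. Errors after ± are the SD of levels and the SE of log2 fold changes. No libraries agreed within sampling noise (lowest chi-square per degree of freedom 29.2). Alternatives were DESeq2 1.42.0, limma 3.58.1 (voom, and log2(TPM + 0.1)), other scaling, filters and libraries, and a replicate block.

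Replicate numbers were taken to pair libraries where the deviations of all 3 same-numbered pairs from their group means correlated above 0.1: BMP4 against NT (0.16 to 0.44), BMP4-TGFB2 against TGFB2 (0.23 to 0.5), BMP4-TGFB2 against BMP4 (0.15 to 0.35) and BMP4 against TGFB2 (0.15 to 0.35). In these the blocked value is given where it changes a call. The block was a single replicate effect shared by all 12 libraries and 4 groups, and was not fitted to the compared groups alone. Each blocked value thus also rests on same-numbered libraries of groups whose numbers were not taken as pairs, BMP4-TGFB2 or TGFB2 with NT.

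All members are named, with up to 4 genes per list (smallest p in TGFB2 or BMP4 against NT, or BMP4-TGFB2 against TGFB2) and the 3 genes most like each member, without predicted or unnamed genes. List genes called only with the block, and marker genes, were named after their values were seen. Members and lists were chosen with earlier results of these data known. Positions are from GENCODE M21.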

Additional observations from a re-analysis of the deposited data

How the results depend on the processing

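Of 1149 recomputed log2 fold changes of the 10 genes, 1021 kept direction and side of the threshold, 27 lost a call, 35 gained one and 66 changed sign, none of the last among called results. Of 9 called results, 4 (Fn1 and Has2 against NT with BMP4-TGFB2 and with TGFB2) lost no call in any alternative. Of 510 recomputed values of called list genes 40 lost the call. The cause of these changes was not tested, beyond the fewer samples or genes of some fits.

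Genes of the 10 that passed with BMP4 against NT (1) numbered 2 in DESeq2, 3 with no filter, 4 with the replicate block, 0 without all replicate 3 libraries (an alternative chosen after seeing the data) and 0 to 1 leaving out each replicate. For BMP4 against TGFB2 (0) they numbered 1 in DESeq2, limma voom and without replicate 3 libraries, 3 with no filter, 4 with the replicate block and 0 to 1 leaving out each replicate. For BMP4-TGFB2 against BMP4 (0) they numbered 1 in DESeq2 and limma voom, 2 with no filter and with the replicate block, and 0 to 1 leaving out each replicate. For BMP4-TGFB2 against NT (4) they numbered 2 in limma voom and 2 to 5, and for TGFB2 against NT (4) 2 to 4, leaving out each replicate. For the interaction (0) 1, Fn1, passed in DESeq2, with no filter and with the replicate block.

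Of all tested genes, BMP4 against NT called 835, DESeq2 1569, the replicate block 2356, its groups alone 527, fits without replicate 3 libraries 298 and leave-one-out fits 293 to 756. BMP4 against TGFB2 called 1200, and in the same order 1977, 2998, no moved value for its groups alone, 558 and 569 to 1143. BMP4-TGFB2 against BMP4 called 1412, and likewise 2219, 3476, 915, 604 and 666 to 1329. BMP4-TGFB2 against NT called 4007, the replicate block 6342, fits without replicate 3 libraries 1995 and leave-one-out fits 2551 to 4273. TGFB2 against NT called 3424, and likewise 5798, 1590 and 2052 to 3665. BMP4-TGFB2 against TGFB2 called 0, DESeq2 51, limma on TPM 2, no filter 23, the replicate block 6 and leave-one-out fits 0 to 1. The interaction called 24, DESeq2 298, limma voom 12, limma on TPM 13, no filter 173, the replicate block 280, fits without replicate 1 libraries 6, without replicate 3 libraries 3 and leave-one-out fits 0 to 27.

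Where numbers were not taken as pairs, the replicate block gave calls for Cd44 with BMP4-TGFB2 (0.33; adjusted p = 0.0295) and TGFB2 (0.37; 0.0179), Thbs2 with TGFB2 (1.90; 0.00869) and the Fn1 interaction (-2.39; 0.045). It changed no other call against NT with BMP4-TGFB2 or TGFB2.

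Signs turned for differences near 0. Has1 in BMP4 against TGFB2 was 0.094 in limma on TPM, 0.25 in limma voom and 0.029 with the replicate block. In limma voom Has1 was 0.035 for BMP4-TGFB2 against BMP4, 0.28 for BMP4-TGFB2 against TGFB2 (0.011 in limma on TPM), -0.066 for TGFB2 against NT and 0.10 for the interaction. Tgfbi with BMP4-TGFB2 against NT was -0.072 in limma on TPM, -0.051 in limma voom, -0.14 with the replicate block and -0.63 without replicate 3 libraries, and without replicate 1 libraries it was 0.18 with BMP4 and 0.32 with TGFB2. Vcan in BMP4 against TGFB2 was -0.20 in limma on TPM, -0.072 in limma voom, -0.053 with the replicate block and -0.27 without replicate 3 libraries, and 0.050 without these in BMP4-TGFB2 against BMP4. For BMP4-TGFB2 against TGFB2, Cd44 was 0.030 without replicate 1 libraries and Thbs1 -0.0034 in limma on TPM.

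Leaving out each replicate, ranges across 0 were, for BMP4-TGFB2 against TGFB2, Cd44 -0.13 to 0.062, Fn1 -0.51 to 0.12, Has1 -0.81 to 0.48, Has2 -0.58 to 0.51, Sparc -0.38 to 0.16, Tgfbi -0.58 to 0.90, Thbs1 -0.21 to 0.35, Tnc -2.73 to 1.49, Vcan -0.55 to 0.064. They were, for BMP4 against NT, Has1 -0.19 to 1.03, Thbs2 -0.23 to 0.81, Tnc -0.19 to 2.89, and, for BMP4 against TGFB2, Has1 -0.71 to 0.66, Tgfbi -1.02 to 0.47, Vcan -0.26 to 0.36, and, for BMP4-TGFB2 against BMP4, Has1 -0.75 to 0.48, Tgfbi -0.41 to 1.28, Vcan -0.59 to 0.04, and, for BMP4-TGFB2 against NT, Has1 -0.30 to 0.85, Tgfbi -0.82 to 0.42, Vcan -0.21 to 0.41, and, for the interaction, Has1 -1.27 to 0.024, Tgfbi -0.17 to 1.51, and, for TGFB2 against NT, Has1 -0.20 to 1.09, Tgfbi -0.87 to 0.070.
Has1, Tgfbi and Thbs2 had the lowest counts of the 10, and the stricter filter left 7 of the 10 genes, with no value for these 3.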

Other observations

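Dividing each gene's deposited counts by its deposited TPM gives a value proportional, within a library, to the mean transcript length that the authors' quantification assigned to it. Each library was scaled by genes with 1 annotated transcript, and the length was then scaled to a mean of 1 over the 12 libraries. For Has2, Thbs1 and Tgfbi it stayed within 0.998 to 1.01. For Cd44, a gene with many splice forms, it ranged from 0.961 to 1.08 and the groups overlapped. Groups also overlapped for Fn1 (0.854 to 1.07), Vcan (0.861 to 1.14) and Has1 (0.918 to 1.34). Sparc was at 0.858, 0.946 and 0.862 with BMP4-TGFB2 and at 1.10, 1.09 and 1.07 with BMP4, while TGFB2 (0.98 to 1.09) overlapped NT (0.897 to 1.08). The mean level of Sparc was 11.5 ± 4.7 CPM with BMP4-TGFB2 and 9.13 ± 6.12 CPM with BMP4, and in TPM 10.2 ± 4.2 with BMP4-TGFB2 and 6.55 ± 4.34 with BMP4 (SD, n = 3 each).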
